A study of Sus scrofa with 6 samples.

Results

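Mitochondrial ribosomal protein genes were followed across 6 RNA-seq libraries of pig (Sus scrofa) oocytes. The members were all genes of the count files whose pig Ensembl symbol begins with MRPL or MRPS and a number. This rule gave 64 of the 25880 gene identifiers, 40 of the large subunit (MRPL) and 24 of the small subunit (MRPS). The rule itself uses symbols and no measured value. Malathion was represented by 3 libraries of oocytes matured in vitro in medium with 1 mM malathion (MAL), an organophosphate insecticide given from a stock in DMSO. They were set against 3 control libraries, and the labels do not say whether the control medium held DMSO. All 6 came from oocytes arrested at MII, the metaphase reached after the first polar body is shed, taken as cumulus-oocyte complexes out of slaughterhouse ovaries. Strain and age are not given, nor is the number of oocytes or pigs behind a library.

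The mitochondrial ribosome translates the few proteins that the mitochondrial genome encodes, all of them parts of the respiratory chain and ATP synthase. Its RNA is made in the mitochondrion, while every one of its proteins is encoded in the nucleus, translated in the cytosol and imported. The large subunit forms peptide bonds and releases the nascent chain through an exit tunnel at the inner membrane. The small subunit reads the mRNA codon by codon. A fully grown oocyte is rich in mitochondria and lives largely on mRNA stored during growth, so a library of an MII oocyte samples that store.

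Gene counts summed to 25816040, 27770242 and 42312341 in MAL libraries 1, 2 and 3, and to 27788154, 27105849 and 29471856 in control libraries 1, 2 and 3. Both replicate 3 libraries stood apart. Reads fell on 8492 genes in MAL library 3 and 8344 genes in control library 3. The other 4 libraries had 12211 to 14707 such genes. All 11 oocyte markers were detected in every library, among them the zona pellucida genes ZP2 and ZP3 and the growth factor gene GDF9. Their summed level was 4898 CPM (counts scaled to the sum of gene counts of a library) in MAL library 3 and 6305 CPM in control library 3, but 120511 and 88368 CPM in MAL libraries 1 and 2 and 114460 and 44080.5 CPM in control libraries 1 and 2. DNMT1 and BTG4 made up most of that sum in the libraries numbered 1 and 2, while ZP2 and MOS were highest in MAL library 3, at 2158 and 1458 CPM. The 10 cumulus and granulosa markers in the files summed to 66.1 to 722 CPM in MAL libraries and 36.1 to 651 CPM in control libraries, with AMH at 0 in all 6. VCAN and KITLG made up most of this sum in every library. Control library 2 was different in another way, with the highest summed CPM of cytosolic ribosomal protein genes and of mitochondrially encoded genes.

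The 64 genes together took less than 1% of the gene counts of any library. Their summed level was 3856, 3567 and 8590 CPM in MAL libraries 1, 2 and 3, and 3181, 5113 and 2322 CPM in control libraries 1, 2 and 3. The highest and the lowest sums were those of the replicate 3 libraries, and the groups overlapped. The means were 5338 ± 2820.2 CPM in MAL libraries and 3539 ± 1429.7 CPM in control libraries (SD, n = 3 each), a difference of 1799 CPM that is smaller than the larger SD. Without MAL library 3 the difference was 173 CPM, and without both replicate 3 libraries it was -435 CPM. Being shares of a library's own gene counts, such sums show neither the number of oocytes nor the amount of RNA per oocyte. CPM are read shares that are not corrected for transcript length, since no lengths were available, so they are compared between libraries and not as amounts between genes.

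**Figure D1:**
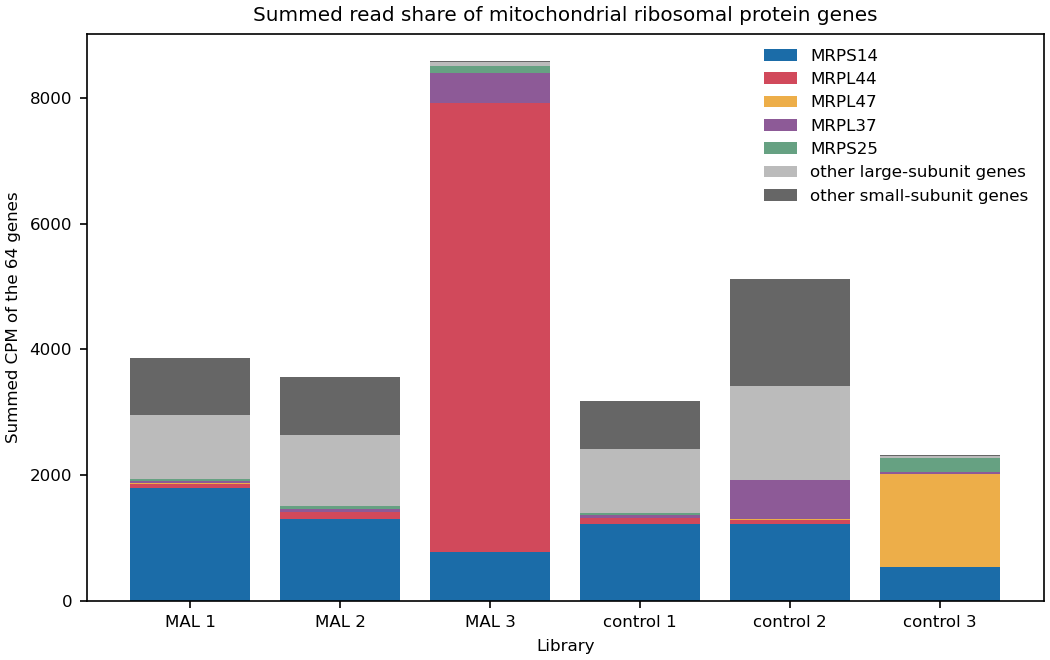
Summed CPM of the 64 mitochondrial ribosomal protein genes (y axis, linear) in each library, MAL 1 to 3 at left and control 1 to 3 at right. Colours mark the 5 genes with the most reads in the replicate 3 libraries and the remaining large-subunit and small-subunit genes. MRPL44 fills most of MAL 3 and MRPL47 most of control 3.

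A single gene took a large share of each sum. MRPS14 (ENSSSCG00000031435), the relative of bacterial uS14 in the head of the small subunit, had the highest read share of the 64 genes in 4 libraries. It held 46.4% of the genes' reads in MAL library 1, 36.7% in MAL library 2, 38.5% in control library 1 and 24.0% in control library 2. Its level was 1791, 1309 and 777 CPM in MAL libraries 1, 2 and 3, and 1224, 1225 and 536 CPM in control libraries 1, 2 and 3. The replicate 3 libraries had the lowest value of their group, and the groups overlapped. MRPS14 was thus among the few members that kept a large read share in every library. Counting error on these percentages was at most ± 0.361 percentage points (95% Wilson interval).

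Each replicate 3 library was led by a large-subunit gene that was far lower in the other 5 libraries. MRPL44 (ENSSSCG00000016232), a protein with an RNase III-like fold near the exit tunnel, stood at 71.0, 96.7 and 7138 CPM in MAL libraries 1, 2 and 3, and at 93.9, 67.5 and 9.20 CPM in control libraries 1, 2 and 3. It supplied 83.1% of the genes' reads in MAL library 3. MRPL47 (ENSSSCG00000011763), the relative of bacterial uL29 at the tunnel exit, stood at 11.8, 8.86 and 1.04 CPM in MAL libraries, and at 7.27, 13.9 and 1471 CPM in control libraries, in the same order. It supplied 63.3% of the genes' reads in control library 3. In both cases 1 library of 6 was high, and the other library numbered 3 had the lowest value.

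MRPL37 and MRPS25 also kept reads in the replicate 3 libraries. MRPL37 (ENSSSCG00000032083), a large-subunit protein without a bacterial relative, had 33.9, 50.3 and 486 CPM in MAL libraries 1, 2 and 3, and 45.6, 615 and 40.0 CPM in control libraries 1, 2 and 3. It was high in MAL library 3 and in control library 2. MRPS25, a mitochondria-specific protein of the small-subunit body, had 30.4, 37.7 and 103 CPM in MAL libraries and 30.8, 7.97 and 219 CPM in control libraries. Its highest values were those of the replicate 3 libraries and its lowest that of control library 2. It lies outside the rule for named genes and was singled out after its values were seen, like MRPL15, MRPL19, MRPL46 and MRPL50 below.

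MRPS14, MRPL44, MRPL47, MRPL37 and MRPS25 together held 99.0% of the members' reads in MAL library 3 and 98.0% in control library 3. In the other libraries they held 50.3% and 42.1% (MAL libraries 1 and 2) and 44.1% and 37.7% (control libraries 1 and 2). The other 59 genes summed to 1918, 2065 and 84.4 CPM in MAL libraries 1, 2 and 3, and to 1779.6, 3183 and 47.4 CPM in control libraries 1, 2 and 3. Over these 59 genes both replicate 3 libraries were the lowest of the 6. The genes left out were picked for their reads in those libraries, so these shares and this order were largely set by the choice. The sum of the oocyte markers was also lowest in these libraries, though ZP2 and MOS were not low in MAL library 3. The part of that shortfall in the members' levels was not tested.

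The balance between the subunits differed between libraries and turned with the leading gene. Large-subunit genes summed to 1133, 1298 and 7696 CPM in MAL libraries 1, 2 and 3, and to 1153, 2186 and 1544 CPM in control libraries 1, 2 and 3. Small-subunit genes summed to 2724, 2269.98 and 895 CPM in MAL libraries, and to 2028, 2927 and 778 CPM in control libraries. The log2 ratio of small to large was 1.27, 0.81 and -3.10 in MAL libraries, and 0.81, 0.42 and -0.99 in control libraries. The small subunit had the larger share in the 4 libraries numbered 1 and 2, and the large subunit in both numbered 3. Without the gene with the most reads in each library (MRPS14, MRPL44 or MRPL47) the log2 ratio was -0.28, -0.43 and 0.68 in MAL libraries, and -0.52, -0.36 and 3.41 in control libraries. The larger share then lay with the other subunit in all 6 libraries. The gene left out always belonged to the subunit with the larger share, so leaving it out could move the ratio only that way. The mean ratio differed by -0.43 on the log2 scale between MAL and control libraries, far inside the SDs of 2.40 (MAL) and 0.95 (control). Without both replicate 3 libraries the difference was 0.42, and with MRPS18A and MRPS30 counted in the large subunit, where structures place them, it was -0.36. Without the gene with the most reads in each library the difference was -0.85, and that in summed CPM was -307 CPM. Different genes were left out in different libraries, so these differences compare unlike sets of genes.

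Most members were detected outside the replicate 3 libraries. At least 1 count was present for 56, 58 and 36 of the 64 genes in MAL libraries 1, 2 and 3, and for 59, 61 and 39 in control libraries 1, 2 and 3. Thinned to 25816040 counts each, the libraries had 56, 58 and 33 of the genes (MAL) and 59, 61 and 39 (control), and the replicate 3 libraries were again the lowest. At least 10 CPM was reached by 30, 31 and 6 genes in MAL libraries, and by 30, 43 and 5 genes in control libraries. Control library 2 therefore had more members at appreciable levels than any other library, and the replicate 3 libraries the fewest. This pattern was not particular to the members. Of all genes tested, 62.8% reached 10 CPM in control library 2, against 49.0% to 52.6% in MAL libraries 1 and 2 and control library 1. The shares of all genes tested were likewise lowest in the replicate 3 libraries. At least 100 CPM was reached by 13 members in control library 2, against 3 to 6 in the other libraries. The share of all genes tested at 100 CPM was not counted, so no trait of the members is read from this.

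**Figure D2:**
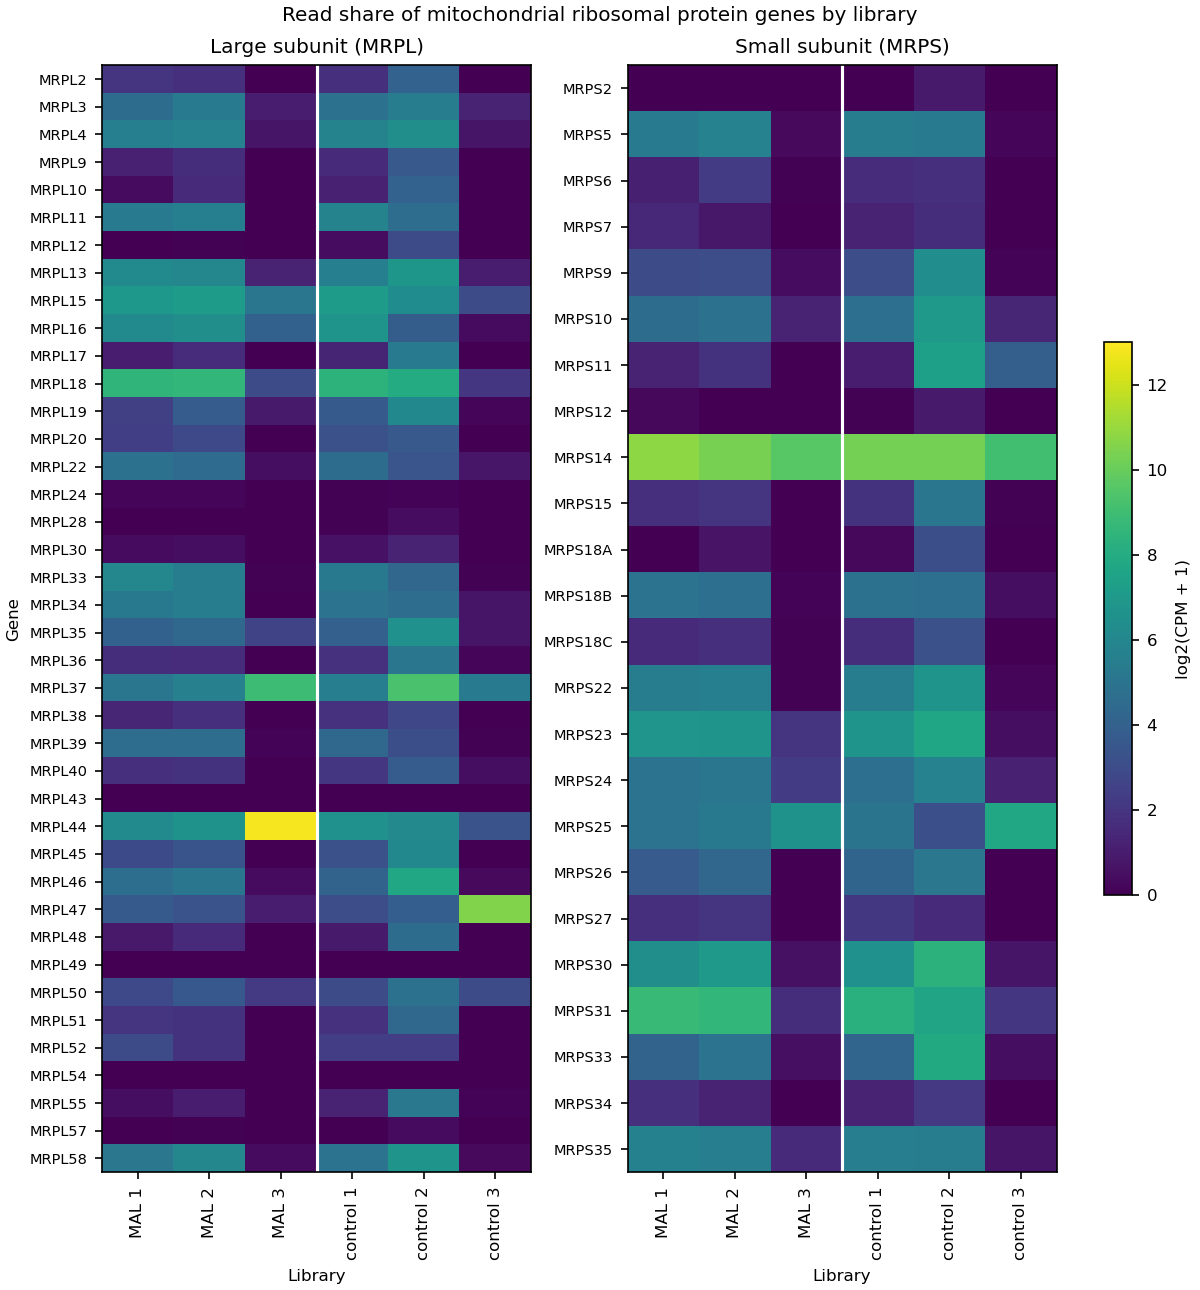
Level of each of the 64 genes as log2(CPM + 1) (colour) in the 6 libraries (columns, MAL 1 to 3 left of control 1 to 3), large subunit at left and small subunit at right. The replicate 3 columns are dark but for a few genes, and control 2 has the most bright cells.

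MRPL43, MRPL49 and MRPL54 had 0 counts in all 6 libraries, where 3 counts would be 0.0709 to 0.116 CPM. A limit from counting says nothing of reads that fall on 2 genes. In the RefSeq table the span of MRPL43 overlaps that of TWNK, the mitochondrial DNA helicase gene, which had 7.24, 8.17 and 0.827 CPM in MAL libraries and 8.92, 72.9 and 0.0339 CPM in control libraries. The span of MRPL49 overlaps those of SYVN1 and FAU. How the counting treated reads shared by overlapping genes is not given in the sources used here, so these zeros are uncertain. Spans of 22 of the 64 members overlap another gene there. The other 7 members that the filter on low counts removed were MRPL12, MRPL24, MRPL28, MRPL57, MRPS2, MRPS12 and MRPS18A. None of the 10 exceeded 7.75 CPM in any library. The filter, edgeR's filterByExpr, left 54 members, 33 of the large and 21 of the small subunit.

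Among the large-subunit genes, those of the stalk recruit translation factors to the ribosome. MRPL11, at the base of the stalk, stood at 38.7, 48.5 and 0.0236 CPM in MAL libraries 1, 2 and 3, and at 54.4, 23.8 and 0 CPM in control libraries 1, 2 and 3. MRPL10, which anchors the stalk, stood at 0.310, 2.05 and 0 CPM in MAL libraries, and at 1.30, 16.2 and 0 CPM in control libraries. MRPL12, whose dimers form the stalk, had 0, 1 and 0 counts in MAL libraries, and 10, 189 and 0 counts in control libraries. Control library 2 was thus the highest for MRPL10 and MRPL12, and not for MRPL11. Fitted log2 fold changes were 0.26 ± 1.49 for MRPL11 and -2.39 ± 1.77 for MRPL10 (SE, derived from edgeR's quasi-likelihood test).

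Proteins near the peptidyl transferase centre were represented by MRPL2, MRPL3, MRPL4 and MRPL16. MRPL3, the relative of bacterial uL3, had 22.9, 39.7 and 1.09 CPM in MAL libraries 1, 2 and 3, and 29.0, 45.2 and 1.49 CPM in control libraries 1, 2 and 3. Libraries with the same number were close for MRPL3, the groups overlapped, and it had a fitted log2 fold change of -0.11 ± 0.92. MRPL16 stood at 70.7, 85.4 and 15.6 CPM in MAL libraries, and at 105, 13.1 and 0.305 CPM in control libraries. Here control library 2 was low, in contrast to most members. The fitted log2 fold change of MRPL16 was 1.82 ± 1.20, and it was -0.48 once control library 2 and both replicate 3 libraries were left out.

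At the exit tunnel, where the nascent chain meets the inner membrane, MRPL17 and MRPL45 were high in control library 2 alone. MRPL17, the relative of bacterial bL17, had 1.08, 2.16 and 0 CPM in MAL libraries 1, 2 and 3, and 1.58, 40.7 and 0 CPM in control libraries 1, 2 and 3. MRPL45, which tethers the ribosome to the membrane, had 6.70, 9.40 and 0.0236 CPM in MAL libraries, and 8.49, 67.3 and 0.0339 CPM in control libraries. The fitted log2 fold changes were -3.14 ± 1.81 and -1.75 ± 1.45, and without control library 2 they were 0.24 and 0.19. The highest values of MRPL17, MRPL45, MRPL44 and MRPL47 were thus in 3 different libraries.

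The central protuberance lies at the contact between the subunits. MRPL18, the relative of the bacterial protein that binds 5S rRNA, had the most reads of its members, at 367, 388 and 7.14 CPM in MAL libraries 1, 2 and 3, and 340.2, 252 and 3.12 CPM in control libraries 1, 2 and 3. MRPL55 had 0.387, 0.972 and 0 CPM in MAL libraries, and 1.37, 35.9 and 0.102 CPM in control libraries. MRPL18 was close to even among the 4 libraries numbered 1 and 2, whereas MRPL55 had 972 counts in control library 2 and at most 38 in any other. Of the 6 members 1 had a fitted log2 fold change above 0 and 5 below, with a median of -1.61, and without control library 2 the median was 0.21. MRPL55 itself stood at -4.22 ± 1.73, with an unadjusted p of 0.028, an adjusted p of 1.00 (edgeR's quasi-likelihood test, Benjamini-Hochberg) and a value of -1.65 without control library 2.

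MRPL58, a peptidyl-tRNA hydrolase of the release factor family that is built into the large subunit, had 35.0, 64.7 and 0.307 CPM in MAL libraries 1, 2 and 3, and 30.3, 106 and 0.271 CPM in control libraries 1, 2 and 3. The groups overlapped, and the fitted log2 fold change was -0.08 ± 1.13. The large-subunit genes outside these role groups and apart from MRPL37 and MRPL58 ranged between 0 and 144 CPM. MRPL15 took the most reads of them in every library but control library 2, though in control library 3 with 200 counts against 199 of MRPL50.

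In the small subunit, MRPS5 and MRPS24 stand for the mRNA entry region. MRPS24, the relative of bacterial uS3, had 29.6, 33.6 and 3.85 CPM in MAL libraries 1, 2 and 3, and 25.6, 53.9 and 1.26 CPM in control libraries 1, 2 and 3. Its groups overlapped, and its fitted log2 fold change was 0.62 ± 0.92. MRPS12, a decoding-centre protein, had 5, 0 and 0 counts in MAL libraries and 1, 24 and 0 counts in control libraries, and MRPS2 had 25 counts in control library 2 and 0 elsewhere. Both genes were below the filter on low counts.

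Besides MRPS14, the head of the small subunit was represented by MRPS31, MRPS33, MRPS35, MRPS7, MRPS9 and MRPS10. MRPS31, a mitochondria-specific protein, stood at 440.0, 386 and 2.22 CPM in MAL libraries 1, 2 and 3, and at 305, 194 and 3.09 CPM in control libraries 1, 2 and 3. It was higher in MAL libraries 1 and 2 than in any control library, but MAL library 3 was the lowest of the 6, and the fitted log2 fold change was 0.80 ± 1.15. MRPS33, also mitochondria-specific, stood at 16.3, 30.2 and 0.425 CPM in MAL libraries, and at 17.9, 236 and 0.407 CPM in control libraries. Its value in control library 2 was 7.61-fold above the highest of MAL library 1, MAL library 2 and control library 1 on CPM + 1, and its fitted log2 fold change of -1.82 ± 1.18 was 0.46 without that library.

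MRPS35 had 51.4, 46.1 and 2.08 CPM in MAL libraries 1, 2 and 3, and 45.7, 43.3 and 0.679 CPM in control libraries 1, 2 and 3. It was among the most even members across the libraries numbered 1 and 2, with a fitted log2 fold change of 0.60 ± 0.93. MRPS7, the relative of bacterial uS7, had 46, 22 and 0 counts in MAL libraries and 38, 61 and 0 counts in control libraries. Over the 7 members of the head, 3 fitted log2 fold changes were above 0 and 4 below, with a median of -0.18. Without control library 2, 6 were above 0 and 1 below, with a median of 0.46, and without control library 1 the median was 0.11.

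The body and platform held MRPS11, the member with the smallest p. This gene (ENSSSCG00000037343), the relative of bacterial uS11, had 1.36, 2.70 and 0 CPM in MAL libraries 1, 2 and 3, and 1.04, 161 and 14.5 CPM in control libraries 1, 2 and 3. In counts these were 35, 75 and 0 in MAL libraries, against 29, 4371 and 427 in control libraries. Control library 1 lay below both MAL libraries 1 and 2, so the groups overlapped, while control libraries 2 and 3 lay above all 3 MAL libraries. MRPL46, which lies within 1000 bases of MRPS11 in the RefSeq table, had 25.2, 33.0 and 0.307 CPM in MAL libraries, and 16.7, 213 and 0.271 CPM in control libraries. Both neighbours were highest in control library 2, but MRPL46 was not raised in control library 3. Over the 11 members of the body and platform, 5 fitted log2 fold changes were above 0 and 6 below, with a median of -0.35. Without control library 2, 8 were above 0 and 3 below, with a median of 0.16, and without MAL library 3 the median was 0.22.

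MRPS15, another platform protein with a bacterial relative, had 2.36, 2.92 and 0 CPM in MAL libraries 1, 2 and 3, and 2.73, 34.0 and 0.0679 CPM in control libraries 1, 2 and 3. MRPS23, a mitochondria-specific body protein, had 109, 103 and 2.95 CPM in MAL libraries, and 106, 205 and 0.407 CPM in control libraries. MRPS22, in which human variants are known with ovarian failure, had 44.6, 47.1 and 0.0709 CPM in MAL libraries, and 43.0, 104 and 0.170 CPM in control libraries. For these 3 genes MAL libraries 1 and 2 and control library 1 lay close together and control library 2 above them. MRPS34, needed in mouse for a stable small subunit, had at most 3.43 CPM, also in control library 2. MRPS30, which structures place in the large subunit, stood at 84.1, 125 and 0.520 CPM in MAL libraries, and at 94.2, 321 and 0.679 CPM in control libraries.

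The 3 genes related to bacterial bS18 differed in read share and in pattern. MRPS18B had 29.5, 26.1 and 0.0945 CPM in MAL libraries 1, 2 and 3, and 27.8, 25.9 and 0.407 CPM in control libraries 1, 2 and 3. MRPS18C had 52, 70 and 2 counts in MAL libraries and 63, 225 and 0 counts in control libraries. MRPS18A, which belongs to the large subunit in structures, had 0, 17 and 0 counts in MAL libraries and 6, 210 and 0 counts in control libraries. MRPS18B was even across the 4 libraries numbered 1 and 2, and the other two were highest in control library 2.

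Control library 2 carried the highest CPM of 35 of the 54 tested members, against 54.7% of the 10678 genes tested. Of these 35 genes 22 were of the large and 13 of the small subunit. On CPM normalised as in the edgeR fit, control library 2 was highest for 25 of the 54 members, against 30.2% of all genes tested. A stricter count took members that were over 2-fold above each of MAL library 1, MAL library 2 and control library 1, on CPM + 1. Control library 2 met it for 23 of the 54 members, 15 large and 8 small, where 24.8% of all genes tested did. MRPS11 led with 43.8-fold over the highest of the 3, followed by MRPL55 with 15.6-fold, MRPL17 with 13.2-fold and MRPL37 with 12.0-fold. The count of members was a larger share than that of all genes, a description of 1 library with no replicate check.

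Control library 2 was over 2-fold below the same 3 libraries for 5 members, against 5.67% of all genes tested. These were MRPL16, MRPL22, MRPL33, MRPL39 and MRPS25, of which the last 4 were named after their values were seen. MRPL33, the relative of bacterial bL33, had 63.8, 43.6 and 0.0473 CPM in MAL libraries 1, 2 and 3, against 37.8, 18.3 and 0.0679 CPM in control libraries 1, 2 and 3. For numbers 1 and 2 the MAL library was the higher, and for number 3 both were near 0. Control library 2 had 7511 CPM of cytosolic ribosomal protein genes, against 1632 to 2192 CPM in MAL libraries and 1699 and 2212 CPM in the other control libraries. Its mitochondrially encoded genes summed to 58886 CPM, against 13051 to 28706 CPM in MAL libraries and 28050.0 and 5600.1 CPM in control libraries 1 and 3. Its summed oocyte markers were 44080.5 CPM. The part of these differences in the members' levels was not tested.

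**Figure D3:**
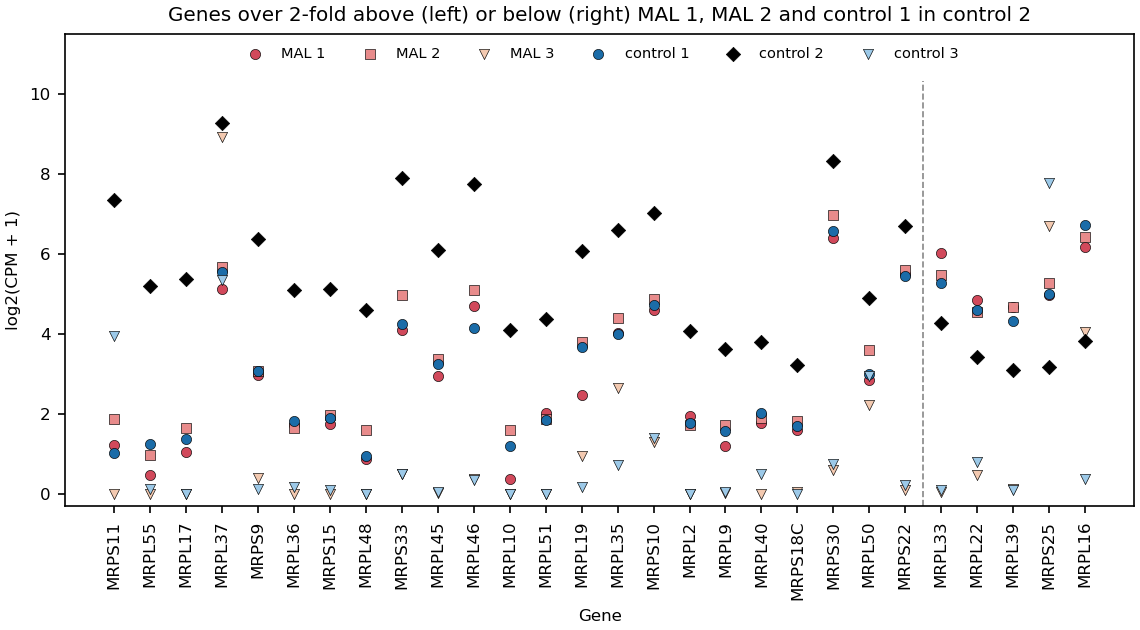
Level, as log2(CPM + 1), of the 23 genes over 2-fold above MAL 1, MAL 2 and control 1 in control 2 (left of the dashed line) and the 5 over 2-fold below (right). Black diamonds mark control 2. MRPS11 shows the largest gap, and the points of MAL 1, MAL 2 and control 1 lie close together for most genes.

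MAL library 1 and control library 1 had nearly the same profile of members. Of the 54 tested, 53 were within 2-fold of each other on CPM + 1, against 94.1% of all genes tested, and the exception was MRPL19 (4.53 CPM in MAL library 1, 11.8 CPM in control library 1). The correlation of log2(CPM + 1) across the 54 members was 0.985, given as a description since genes are not replicates. MAL library 2 and control library 1 were as alike, with 53 of 54 within 2-fold (96.6% of all genes tested) and a correlation of 0.989. MRPL58 was the exception, at 64.7 CPM in MAL library 2 and 30.3 CPM in control library 1. The 2 MAL libraries numbered 1 and 2 had a correlation of 0.980 with each other.

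The other pairs were further apart. MAL library 2 and control library 2 had 25 of 54 members within 2-fold (60.8% of all genes tested), with a median log2 ratio of -0.86 on CPM + 1. MAL library 3 and control library 3 had 44 of 54 within 2-fold (82.1% of all genes tested), with medians over the tested members of 0.0945 CPM in MAL library 3 and 0.221 CPM in control library 3. Control libraries 1 and 2 correlated at 0.644 over the members and at 0.861 over all genes tested. The distance between these control libraries was thus larger than that between MAL library 1 or 2 and control library 1.

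**Figure D4:**
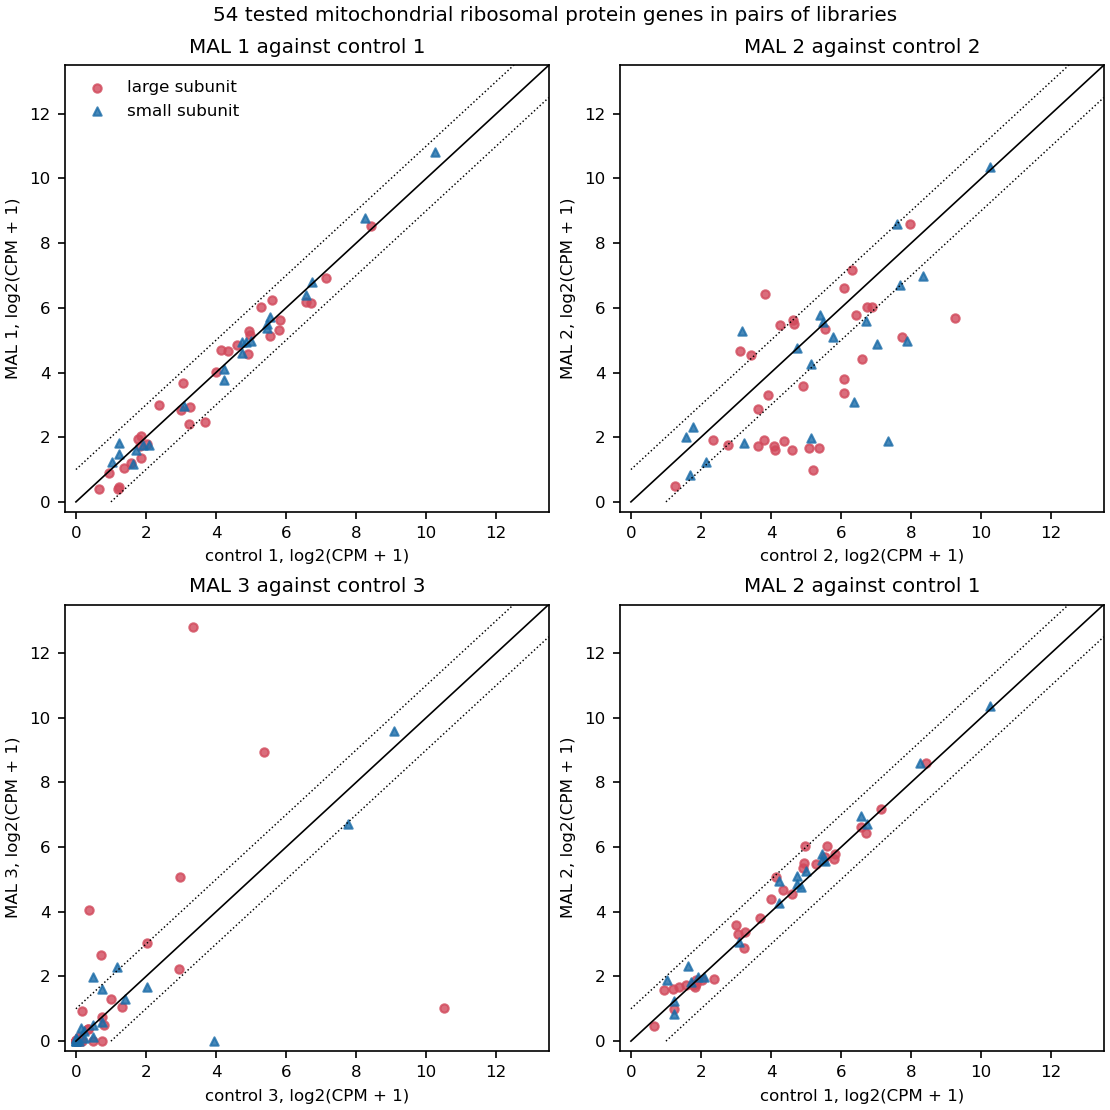
Level of the 54 tested members, as log2(CPM + 1), in 4 pairs of libraries, each with a MAL library on the y axis and a control library on the x axis. The solid line marks equality and the dotted lines 2-fold. Points hug the line for MAL 1 or MAL 2 against control 1, and scatter for the pairs numbered 2 and 3.

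The replicate 3 libraries shared their shortage and differed in their first gene, while MRPS14, MRPL37 and MRPS25 were among the 4 members with the most reads in both. Both were below all 4 other libraries for 47 of the 54 tested members, against 83.8% of all genes tested. The exceptions were MRPL16, MRPL37, MRPL44, MRPL47, MRPL50, MRPS11 and MRPS25. Tested members at 0 counts numbered 18 in MAL library 3 (26.7% of all genes tested) and 15 in control library 3 (28.7%). The shares of the members were close to these backgrounds, apart from a slightly larger share at 0 in MAL library 3.

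Malathion and control were then compared gene by gene with edgeR's quasi-likelihood test over the 10678 genes, with TMM normalisation factors and Benjamini-Hochberg adjustment. None of the 54 tested members passed an adjusted p of 0.05, and neither did any other gene (0% of 10678). DESeq2's Wald test also called 0, but gave an adjusted p to only 9559 of the 10678 genes and 47 of the 54 members. At an unadjusted p under 0.05, 3 members were lower in MAL libraries (2.67% of all genes tested) and 0 were higher (0.918% of all genes tested). The first was MRPS11 at a log2 fold change of -6.40 ± 1.72 (SE), with an unadjusted p of 0.002 in edgeR's quasi-likelihood test. The others were MRPL47 at -9.35 ± 3.55, with an unadjusted p of 0.019 in the same edgeR fit, and MRPL55. The adjusted p of each was 1.00 (edgeR, Benjamini-Hochberg). By CPM the groups overlapped for each of the 54 members, where 0.243% of all genes were apart with MAL higher and 0.506% with MAL lower.

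Each of these values hung on few libraries. Leaving out MAL library 1 or MAL library 2 gave 0 called members, beside 0.0264% and 0.0269% of the genes tested there. MRPL47 stood at 0.62 without control library 3. MRPS11 had the smallest p of all 10678 genes and kept its direction when any 1 library was left out, at -7.11 to -5.24, but stood at 0.88 without control library 2 and both replicate 3 libraries. With no filter on low counts, over 16852 genes, it was the 1 member called (0.356% of all genes), at -6.34 ± 1.39 with an adjusted p of 0.005 (edgeR's quasi-likelihood test), while its adjusted p ranged between 0.067 and 1.00 in the other alternatives. MRPL44, with the largest positive value of the 54, stood at 8.71 ± 4.42 and at -0.26 without MAL library 3. MRPL37 stood at 2.90 ± 2.15, and at -3.20 without MAL library 3.

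The fitted values of the other genes high in a replicate 3 library depend on the scaling. The TMM factor was 0.138 for MAL library 3 and 0.141 for control library 3, while the remaining libraries had 2.25 to 3.59, so a given CPM counts for more there. MRPS14 had a fitted log2 fold change of 0.57 ± 2.12, and 0.37 on library totals alone. With these factors its normalised CPM was highest in the replicate 3 libraries, at 5631 (MAL) and 3814 (control), against 344 to 795 elsewhere. Its order by CPM was thus turned. MRPS11 was then highest in control library 3, at a normalised CPM of 103, against 45.2 in control library 2. MRPL37 was at -0.30 on library totals alone.

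Of the 54 members, 23 had a fitted log2 fold change above 0 and 31 below, with a median of -0.26. Among all genes tested 46.6% were above 0 and 53.4% below, with a median of -0.08. On library totals alone the split of the members was 17 above and 37 below and the median -0.64, while the median of all genes moved to -0.33. The large subunit had 13 above and 20 below (median -0.66), and the small subunit 10 above and 11 below (median -0.18). Without control library 2 these medians were 0.35 and 0.39, and without MAL library 3 that of the small subunit was 0.15. Of the 23 members high in control library 2, 21 were below 0. They were picked for being high in a control library, so this count was largely set by the choice. Without control library 2, 40 of the 54 members were above 0 and 14 below, with a median of 0.39 against 0.22 for all genes. The direction of the members as a group therefore turned with 1 control library.

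Standard errors of the 54 log2 fold changes ranged between 0.92 and 4.42, with a median of 1.45. The sign of 35 members turned when some 1 library was left out, and 19 kept theirs, 10 below and 9 above 0. MRPL18, MRPS31 and MRPS35 were among the 9 that stayed above 0. With MAL libraries 1 and 2 set against control library 1, none of the 54 was further than 1.09 from 0 on the log2 scale, the median was 0.05, and 0 of the 55 members that passed the filter there had an unadjusted p under 0.05. That comparison has 1 control library, whose spread is taken to be that of the MAL libraries.

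**Figure D5:**
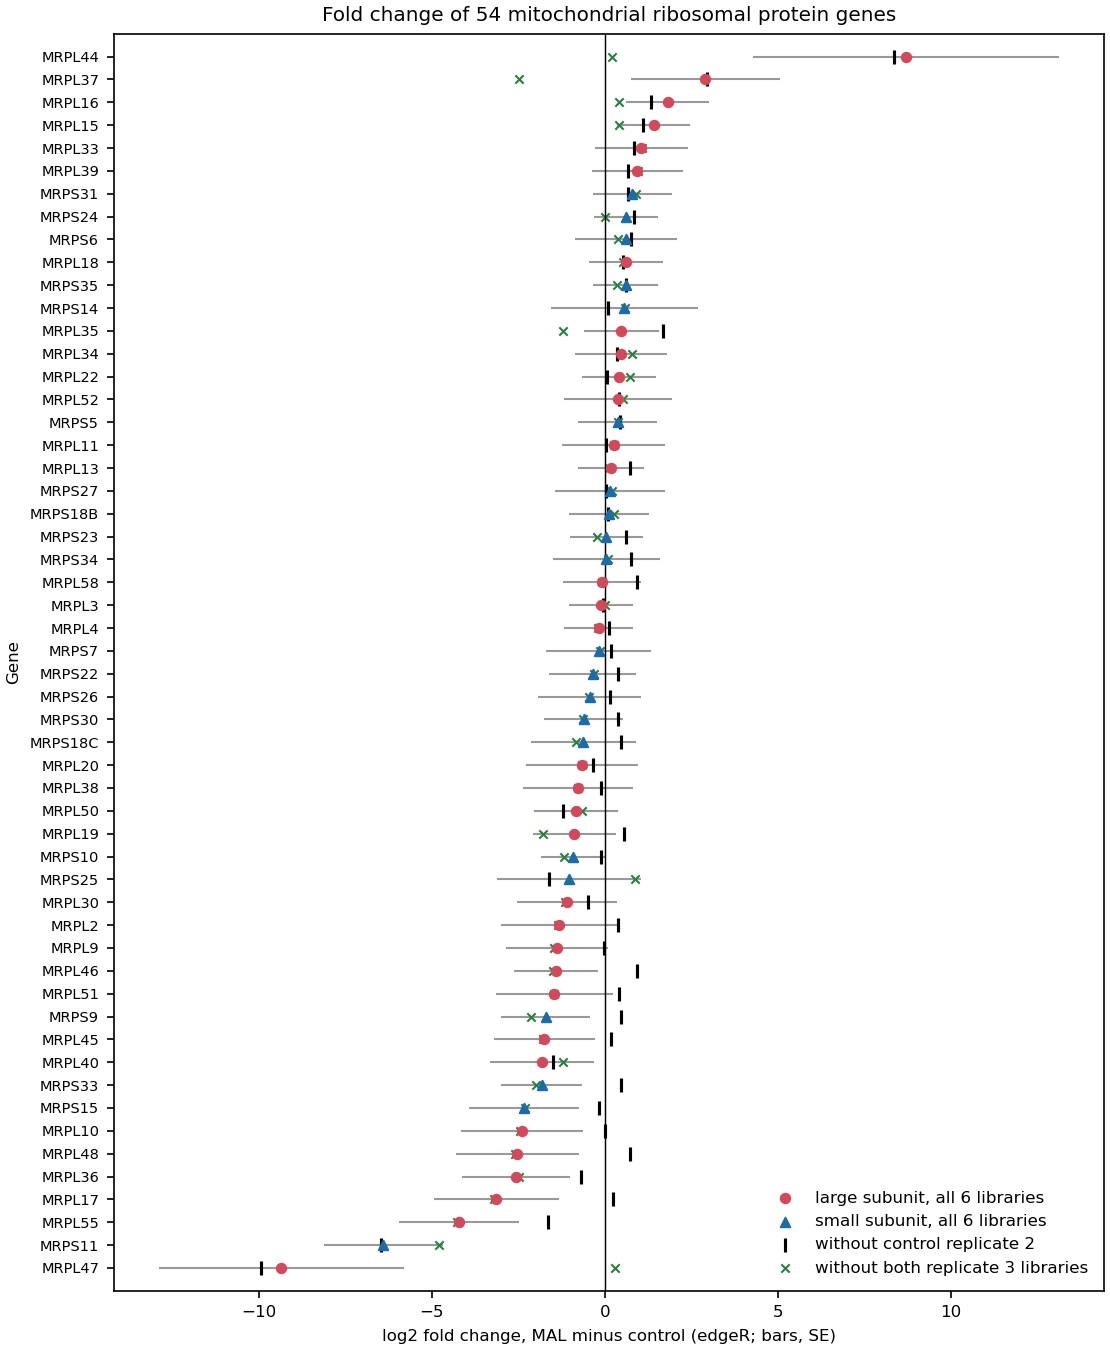
Fitted log2 fold change (MAL minus control, edgeR; bars are SE) of the 54 tested members in rank order, large subunit as circles and small subunit as triangles. Vertical ticks give the value without control 2 and crosses that without both replicate 3 libraries. The ticks lie to the right of 0 for 40 genes, and the crosses of MRPL44 and MRPL47 lie near 0.

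Genes that work with the mitochondrial ribosome were followed in the same fit. Among its proteins with other symbols, 5 of the 6 in the files were tested, 1 above and 4 below 0, with a median of -1.20, and 0.80 without control library 2. CHCHD1, a small-subunit protein, had 4.30, 9.07 and 0.118 CPM in MAL libraries 1, 2 and 3, and 7.99, 18.8 and 171 CPM in control libraries 1, 2 and 3. Its log2 fold change of -7.62 ± 2.29 was -1.03 without control library 3. DAP3, a GTP-binding small-subunit protein, had 7.48, 8.39 and 0.0473 CPM in MAL libraries, and 5.25, 53.0 and 0.0339 CPM in control libraries. It was highest in control library 2, as 35 of the tested members were.

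Of the 14 tested mitochondrial translation factors 6 were above and 8 below 0 (median -0.29, 0.49 without control library 2 and 0.03 without MAL library 3). TUFM, the mitochondrial elongation factor Tu, had 6.04, 7.71 and 0.0236 CPM in MAL libraries 1, 2 and 3, and 5.33, 52.2 and 0 CPM in control libraries 1, 2 and 3. LRPPRC, which stabilises mitochondrial mRNA, had 82.8, 96.6 and 8.27 CPM in MAL libraries, and 87.7, 46.7 and 1.29 CPM in control libraries. Among the libraries numbered 1 and 2, control library 2 was the highest for TUFM and the lowest for LRPPRC.

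Assembly and rRNA modification genes had 11 of 20 tested above 0 and 9 below (median 0.06, and -0.29 on library totals alone). The median was 0.45 without control library 2 and -0.38 without control library 3, and it was -0.18 and -0.23 without MAL library 1 or 2. The 2 with the smallest p were TRUB2, a pseudouridine synthase, at -3.68 ± 1.91, and YBEY, an endonuclease, at -1.41 ± 1.68, both low in all libraries with at most 7.16 CPM. Mitochondrial aminoacyl-tRNA synthetases had 10 of 15 above 0 and 5 below (median 0.11, and -0.18 on library totals alone), with KARS1 and GARS1 of this list serving the cytosol too. Their median was 0.52 without control library 2, -0.27 without control library 3, -0.38 without MAL library 3 and -0.16 without MAL library 1. IARS2, which charges the isoleucine tRNA, had 70.7, 69.4 and 714 CPM in MAL libraries 1, 2 and 3, and 75.9, 32.4 and 23.4 CPM in control libraries 1, 2 and 3. Its log2 fold change was 4.66 ± 2.44, and -1.24 without MAL library 3. EARS2, which charges the glutamate tRNA, stood at -2.03 ± 1.30. None of these genes passed an adjusted p of 0.05 in edgeR's quasi-likelihood test.

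The mRNAs that the mitochondrial ribosome translates were counted in the same libraries. Of the 13 mitochondrially encoded protein genes 7 were above and 6 below 0, with a median of 0.33, and -0.52 on library totals alone. Without MAL library 3 the median was -0.45, and without control library 2 it was 0.05. Cytosolic ribosomal protein genes had 6 of 45 above and 39 below 0, with a median of -1.56, and -0.19 without control library 2. No test of the difference between the lists was made.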

How the data were processed

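Polyadenylated RNA of pig MII oocytes was measured in 3 MAL and 3 control libraries made with a modified Smart-seq2 method, per the labels' protocols. What the authors deposited are raw read counts per Ensembl gene, whole numbers with no sign of normalization. STAR 2.5.3a, DESeq2 1.20.0 and HTSeq 0.9.1 are named in the submitters' processing notes. Their roles, the genome build, the strand setting and the treatment of reads on overlapping genes are not given in the sources used here. Smart-seq2 uses no molecular identifiers, so intervals and floors of 3 counts cover counting error only.

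The 5 HTSeq rows for reads given to no gene, 36.7% to 42.6% of the reads, were left out. Symbols came from a table of Ensembl names that matched 14857 of 25880 identifiers. Of its 65 identifiers with a member symbol, 64 were in the files, and MRPS28 was not analysed here. Another 12 member symbols of RefSeq (Sscrofa11.1), among them MRPL27, MRPS16 and MRPS36, had no identifier in that table and were not analysed here. Members and gene lists were chosen with earlier results of these data known.

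The comparison of MAL with control used edgeR 4.0.16 under R 4.3.3 and its two-sided quasi-likelihood F test on the counts, with TMM factors, filterByExpr (minimum count 10) and Benjamini-Hochberg adjustment over the 10678 genes kept. Log2 fold changes are MAL minus control. The SE of the edgeR fits was derived as the absolute log2 fold change divided by the square root of the F statistic. Sums, ratios and likeness of libraries carry no test. Alternatives were DESeq2 1.42.0, other scalings, no filter, a replicate block, leaving out libraries, thinning, and CPM minimums of 1 and 10. Named genes were, per subunit, the 3 with the smallest p in each direction and the 4 with the highest mean CPM, 17 members of known role, those at 0 in every library, and 2 genes of smallest p per related list. The labels do not say what a replicate is, so p-values measure a spread that may be technical. Same-numbered MAL and control libraries deviated together from their group means over all genes (r = 0.466, 0.467 and 0.573 for numbers 1, 2 and 3). Differently numbered libraries were not put to this check, so it cannot show whether the numbers pair the libraries. Both replicate 3 libraries also stood apart from the rest of their group. MAL library 2 was within 2-fold of control library 1 for 96.6% of genes tested, and of control library 2 for 60.8% (CPM + 1). No label says what the numbers mark. No 2 libraries were duplicates (chi-square over genes per degree of freedom at least 56.9).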

Additional observations from a re-analysis of the deposited data

How the results depend on the processing

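The count of genes called by edgeR's quasi-likelihood test, 0 with all 6 libraries, was 60 with no filter on low counts and 0 to 3 when each library was left out in turn. The count of members called was 1 (MRPS11) with no filter and 0 whichever library was left out. The replicate block took libraries of the same number as pairs, and with it 0 genes and 0 members were called. In edgeR's quasi-likelihood test 120 genes had an unadjusted p under 0.05 with the block and 383 without it. DESeq2's Wald test gave 227 such genes. No gene was called with or without the block, but fitted log2 fold changes moved. With the block MRPL44 went from 8.71 to 1.94, MRPL47 from -9.35 to -1.36 and MRPS11 from -6.40 to -4.98. MRPL16 moved away from 0, from 1.82 to 2.82. When each library was left out in turn, the median log2 fold change ranged between -0.65 and 0.39 for all members, -0.75 and 0.35 for the large subunit and -0.70 and 0.39 for the small subunit. The difference in the log2 ratio of small to large subunit ranged between -1.23 and 0.95, that in summed CPM between 173 and 2685, and that in detected members between -10 and 4. Without the gene with the most reads in each library these were -0.85 for the ratio and -307 CPM for the sum, which turned its sign. That gene was not the same in every library, so these values compare unlike sets of genes. The SD between libraries was 2.40 (MAL) and 0.95 (control) for the ratio and 2820.2 and 1429.7 CPM for the sum. For detected members it was 12.2 in both groups. No SD between libraries is given here for the medians. The fitted log2 fold changes of single genes turned their sign as follows, and the cause was not tested. With DESeq2 size factors MRPS34 stood at -0.032, and with DESeq2's Wald test at -0.030. On library totals MRPL37 stood at -0.30, MRPS23 at -0.54, MRPS24 at -0.27 and MRPS34 at -0.31. With the replicate block MRPL37 stood at -0.13, MRPL58 at 0.055 and MRPS18B at -0.32. Without both replicate 3 libraries MRPL3 stood at 0.015, MRPL37 at -2.49, MRPL47 at 0.30, MRPS23 at -0.22 and MRPS24 at -0.0043. Without these and control library 2, MRPL11 stood at -0.38, MRPL16 at -0.48, MRPL3 at 0.037, MRPL37 at -0.18, MRPL44 at -0.22, MRPL47 at 0.48, MRPL58 at 0.64, MRPS11 at 0.88, MRPS18B at -0.033, MRPS22 at 0.049, MRPS23 at -0.032, MRPS30 at 0.084 and MRPS33 at 0.30. Leaving out each library in turn gave -4.23 to 0.022 for MRPL10, -0.30 to 1.81 for MRPL11, -3.86 to 0.24 for MRPL17, -0.39 to 0.10 for MRPL3, -3.20 to 3.64 for MRPL37, -0.26 to 9.30 for MRPL44, -2.28 to 0.19 for MRPL45, -9.93 to 0.62 for MRPL47 and -0.72 to 0.92 for MRPL58. In the small subunit it gave -1.25 to 2.43 for MRPS14, -0.46 to 0.65 for MRPS18B, -1.11 to 0.47 for MRPS18C, -0.87 to 0.38 for MRPS22, -0.48 to 0.60 for MRPS23, -1.13 to 0.39 for MRPS30, -2.33 to 0.46 for MRPS33, -0.89 to 0.75 for MRPS34 and -1.26 to 0.29 for MRPS7. Over the named members, 282 other values kept their sign and their side of the threshold, and MRPS11 with no filter kept its sign and passed it. Alternatives that leave out both replicate 3 libraries from the sums, ratio and detection counts were added after seeing the data, as was leaving out each library there. Scaling by coding length and a search of promoters were not run, as neither was at hand. Depth limits the members with few counts, which at 3 counts stand at 0.0709 to 0.116 CPM.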
